A study of Gallus gallus with 10 samples.

Results

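The genes described here are those that the deposited annotation places in the KEGG pathway Protein processing in endoplasmic reticulum (ER), read in the isthmus of dwarf white hens that laid translucent or opaque eggs. Of the 17617 genes in the table, 157 carry this pathway. The 14 that also belong to N-glycan biosynthesis, 1 selenoprotein gene and the 4 protein disulfide isomerases P4HB, PDIA3, PDIA4 and PDIA6 were set aside, which left 138 members chosen by annotation and not by any measured value. Of these, 125 carried a symbol in the table, 6 were named through their NCBI gene number, 1 (DDIT3) through its description, and 6 had no symbol. The translucent group held 5 hens and the opaque group 5 hens, all of genotype WT by the labels, with no treatment, from a line of dwarf white chickens bred by selection and last graded for translucency at 85 weeks of age. RNA came from the white isthmus while an egg lay in it, with 1 library per hen, so each value is 1 animal's. In such bulk tissue, fewer cells of a type and less RNA per cell cannot be told apart.

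In the isthmus, a segment of the oviduct, the egg white is wrapped in the fibrous eggshell membranes. Secreted proteins enter the ER through the Sec61 channel, are folded by luminal chaperones such as HSPA5 (BiP) and by the lectin chaperones calreticulin and calnexin, and leave in vesicles coated with COPII. Proteins that do not fold are passed back to the cytosol, tagged with ubiquitin and degraded (ER-associated degradation, ERAD). The kinases IRE1 (ERN1) and PERK (EIF2AK3) and the membrane-bound factor ATF6 sense unfolded protein and control, through XBP1 and ATF4, many of the same chaperones and degradation factors.

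These genes were among the well-expressed transcripts of the isthmus. In FPKM, fragment counts corrected for gene length and for library depth, which allow levels to be set side by side between genes, 29 members averaged over 100, 82 lay between 10 and 100 and 27 lay under 10. The transcription factor ATF4 was the most abundant member and ranked 36 among all genes, followed by the cytosolic chaperones HSPA8 at rank 78 and HSP90AA1 at rank 89 and by the lectin chaperone CALR at rank 90, while HSPA5 ranked 220. Summed over the members, reads took 2.74%, 2.35%, 2.35%, 2.38% and 2.27% of the library in Translucent-1 to Translucent-5, against 2.42%, 2.25%, 2.29%, 2.41% and 2.83% in Opaque-1 to Opaque-5. The share was therefore highest in 1 hen of each group, and the groups overlapped.

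Gene-level reads per hen numbered from 15245165 to 19014779 in the translucent group and from 11601225 to 17309287 in the opaque group, so that 3 reads, taken as the floor, amount to 0.160 to 0.297 CPM (read counts scaled to library size and TMM factor). This covers counting error only. Translucent-1 and Opaque-5 stood apart from the other libraries. On the first principal component of all genes, which carried 39.8% of the variance, they lay at 54.7 and 78.3, while the other 8 hens lay between −36.4 and 11.9, and their TMM scaling factors were 0.855 and 0.869. Of the 3 membrane cargo genes listed, COL10A1, the main collagen of the eggshell membrane, averaged 28714 FPKM, LOXL2 2786 FPKM and LOXL3 2.53 FPKM. SPINK7 (ovomucoid), an egg white protein of the neighboring magnum, averaged 72562 FPKM. It reached 126305 FPKM in Translucent-1, against 94081 FPKM in Opaque-5 and 54132 to 75811 FPKM in the others. No other segment of the oviduct was measured, so the tissue label could not be checked against one.

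The first comparison asked whether transcripts of ER protein processing differed between hens laying translucent and opaque eggs. No member was called different. In the quasi-likelihood test of edgeR, with p-values adjusted by Benjamini-Hochberg over the 12858 genes tested, 0 of the 133 members that passed the low-count filter had an adjusted p-value under 0.05 with an absolute log2 fold change over 1, and 0% of all genes did. DESeq2 called 4 genes in the whole table (0.0246%) and 0 members. The adjusted p-value in edgeR was 0.9999 for every member tested. At an unadjusted p-value of 0.05, edgeR placed 2 members higher (1.5%, against 1.07% of all genes) and 1 lower (0.752%, against 1.12% of all genes) in translucent hens, which is near the share in the whole table. Without Translucent-1 and Opaque-5, which stood apart, 5 members were higher (3.76%, against 2.25% of all genes) and 1 was lower (0.752%, against 1.73% of all genes). In the 6 hens for which sequencing statistics are listed, Translucent-1 to 3 and Opaque-1 to 3, which include 1 of the hens that stood apart, 13 members were higher (9.77%, against 4.04% of all genes) and 0 lower (against 3.63% of all genes), and 0 were called.

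Differences between the groups were small. The log2 fold change, translucent over opaque, had a median of 0.01 over the members and −0.01 over all genes, was positive in 73 members and negative in 60, and stayed under 0.5 in size in 128. The standard error of a member's log2 fold change had a median of 0.17, against 0.22 over all genes, and the spread of log2 CPM between hens of a group had a median SD of 0.28 in members and 0.35 in all genes. Only MAPK10, a stress kinase near the detection floor here, passed 1 in size, at −1.01 ± 0.62 (SE).

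The 5 members that were not tested for their low reads were 3 cytosolic chaperone genes, a calreticulin relative and 1 uncharacterized gene. DNAJC5B and LOC101748683 had 0 reads in every hen, which allows up to the floor given above, and CRYAA had 2 reads in Translucent-3 and 0 in the others. CRYAB, a small heat shock protein, stayed at or under 0.45 FPKM. CALR3 had 5, 2, 7, 2 and 2 reads in translucent hens, against 0 reads in every opaque hen, a difference that cannot be sized at counts so close to the floor of 3.

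The genes of entry into the ER held both members with small p-values on the higher side. Among 12 genes of the translocon and signal peptide handling, 10 had a positive log2 fold change and 2 a negative one, with a median of 0.11, and 0 were called. This group also holds CKAP4, a membrane protein that spaces ER sheets. The split was also 10 to 2 with library size alone, median-of-ratios factors, DESeq2 and log2 FPKM, and 11 to 1 without Translucent-1 and Opaque-5. These settings reuse the same hens, and over all genes 6250 log2 fold changes were positive and 6608 negative. SEC61G, the small gamma subunit of the channel, stood at 435, 285, 347, 304 and 279.8 FPKM in translucent hens, against 246, 130.3, 213, 188 and 272 FPKM in opaque hens. Every translucent hen was above every opaque hen in these FPKM values, but the groups met once libraries were scaled by TMM. The share of all genes without overlap in FPKM was not computed. Its log2 fold change was 0.67 ± 0.24 (SE) with an unadjusted p-value of 0.0183 in edgeR. SSR3, a subunit of the translocon-associated protein complex, had 118, 129.8, 153, 149.6 and 134 FPKM in translucent hens, against 119, 109, 137, 113 and 84.3 FPKM in opaque hens. The values overlapped, and the log2 fold change was 0.30 ± 0.11 (SE, unadjusted p-value 0.0145 in edgeR).

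The other channel subunits differed less. SEC61B, the beta subunit, averaged 346 ± 29.6 FPKM in translucent and 316 ± 49.9 FPKM in opaque hens (SD, n = 5 each), and SEC61A1, which forms the pore, averaged 159 ± 27.7 FPKM in translucent and 147 ± 37.3 FPKM in opaque hens. SSR1, the alpha subunit of the complex that SSR3 belongs to, averaged 259 ± 35.7 FPKM in translucent and 247 ± 34.9 FPKM in opaque hens. TRAM1L1, a relative of the translocating chain-associated protein, had a log2 fold change of 0.14 ± 0.10 (SE). The sum over the 12 genes was 2062 ± 128 FPKM in translucent and 1850 ± 194 FPKM in opaque hens. This difference was not tested.

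**Figure D1:**
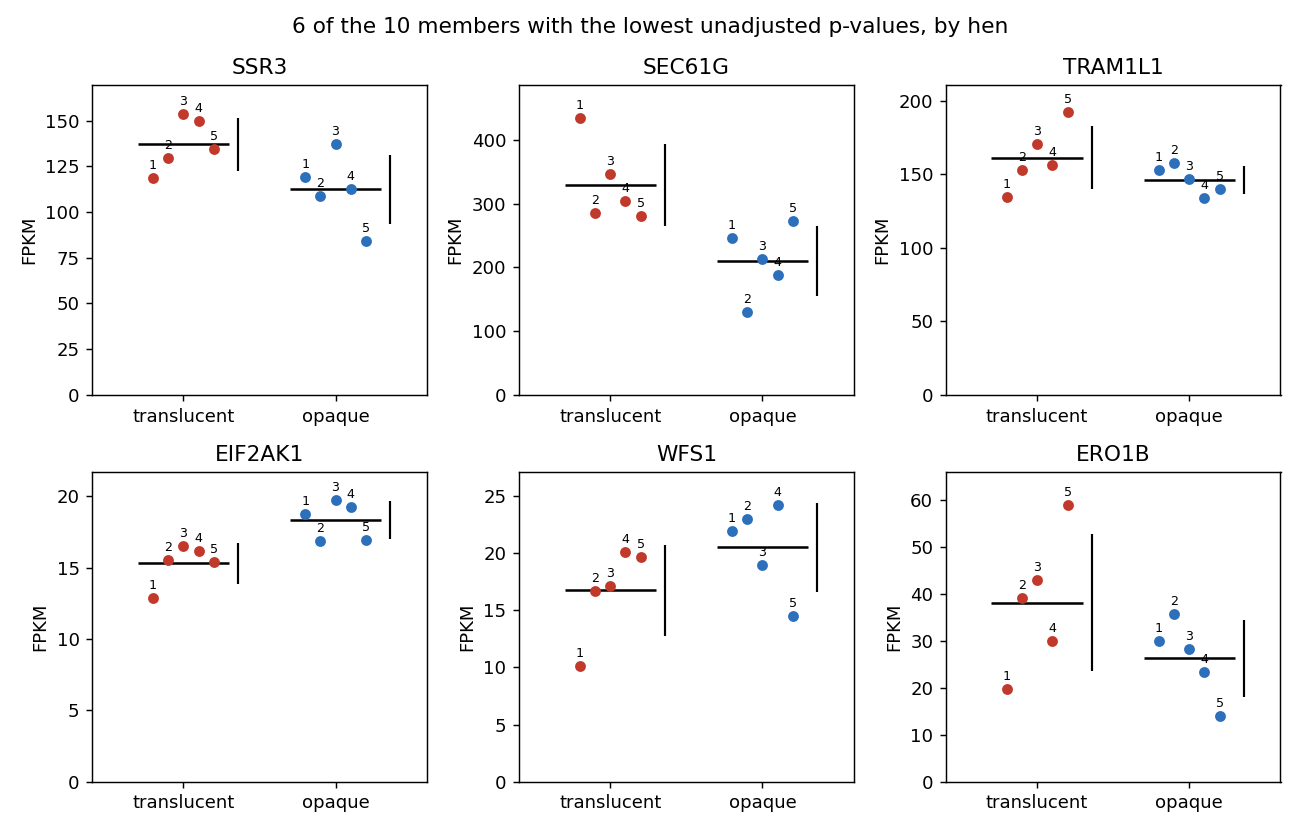
FPKM of SSR3, SEC61G, TRAM1L1, EIF2AK1, WFS1 and ERO1B in each hen, with translucent hens in red on the left and opaque hens in blue on the right; numbers are hens, horizontal bars are means and vertical bars are ± 1 SD (n = 5). SEC61G lay at 280 to 435 FPKM in translucent hens and at 130 to 272 FPKM in opaque hens. Its groups met after TMM scaling. EIF2AK1 lay at 12.9 to 16.5 FPKM in translucent hens and at 16.9 to 19.8 FPKM in opaque hens. The other genes overlapped, and the share of all genes without overlap in FPKM was not computed.

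Luminal chaperones differed between single hens far more than between the groups. HSPA5, the Hsp70 chaperone of the ER lumen, stood at 554, 196, 214, 196 and 166 FPKM in translucent hens, against 190.2, 173, 221, 332 and 567 FPKM in opaque hens. One hen of each group was over 550 FPKM, and Opaque-4 was next. The mean log2 CPM was 9.17 in the translucent and 9.33 in the opaque group, a difference of −0.16 with an exact two-sided permutation p-value of 0.754 (the smallest this design can give is 0.0079). The difference was −0.20 (exact permutation p-value 0.571) without Translucent-1 and Opaque-5, 0.16 (exact permutation p-value 0.817) without Opaque-5 alone and −0.52 (exact permutation p-value 0.317) without Translucent-1 alone. The edgeR log2 fold change was −0.14 ± 0.48 (SE), so changes of either sign remain within its error.

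Counts of HSPA5 were in part shared out by RSEM. A gene without a symbol, ENSGALG00000033498, carries the same KEGG orthology number, and both had fractional estimated counts in 100% of hens. It stood at 70.5, 71.2, 63.7, 66.4 and 72.0 FPKM in translucent hens, against 70.1, 63.5, 30.4, 0.110 and 51.2 FPKM in opaque hens. In Opaque-4 it held 1 read, the lowest of all hens, and Opaque-3 was next. Added together, the 2 genes differed between the groups by −0.09 in log2 CPM (exact permutation p-value 0.857). Opaque-4 was also the highest for HSPA5 of the 8 hens without Translucent-1 and Opaque-5. Correlations over those 8 hens were not computed for the 2 genes together.

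HSP90B1 (GRP94), the Hsp90 of the ER, had 409.8, 262, 249, 259 and 216 FPKM in translucent hens, against 266, 204, 253, 263 and 435 FPKM in opaque hens. The same 2 hens were highest. DNAJC3, a J-domain partner of HSPA5 that also restrains PERK, had 149, 114, 137, 141 and 139 FPKM in translucent hens, against 129, 108, 114, 123 and 188 FPKM in opaque hens. HYOU1, a nucleotide exchange factor of HSPA5, averaged 57.2 ± 9.54 FPKM in translucent and 52.2 ± 9.07 FPKM in opaque hens. Of the 8 genes in this group, 4 had a positive and 4 a negative log2 fold change, between −0.14 and 0.14.

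**Figure D2:**
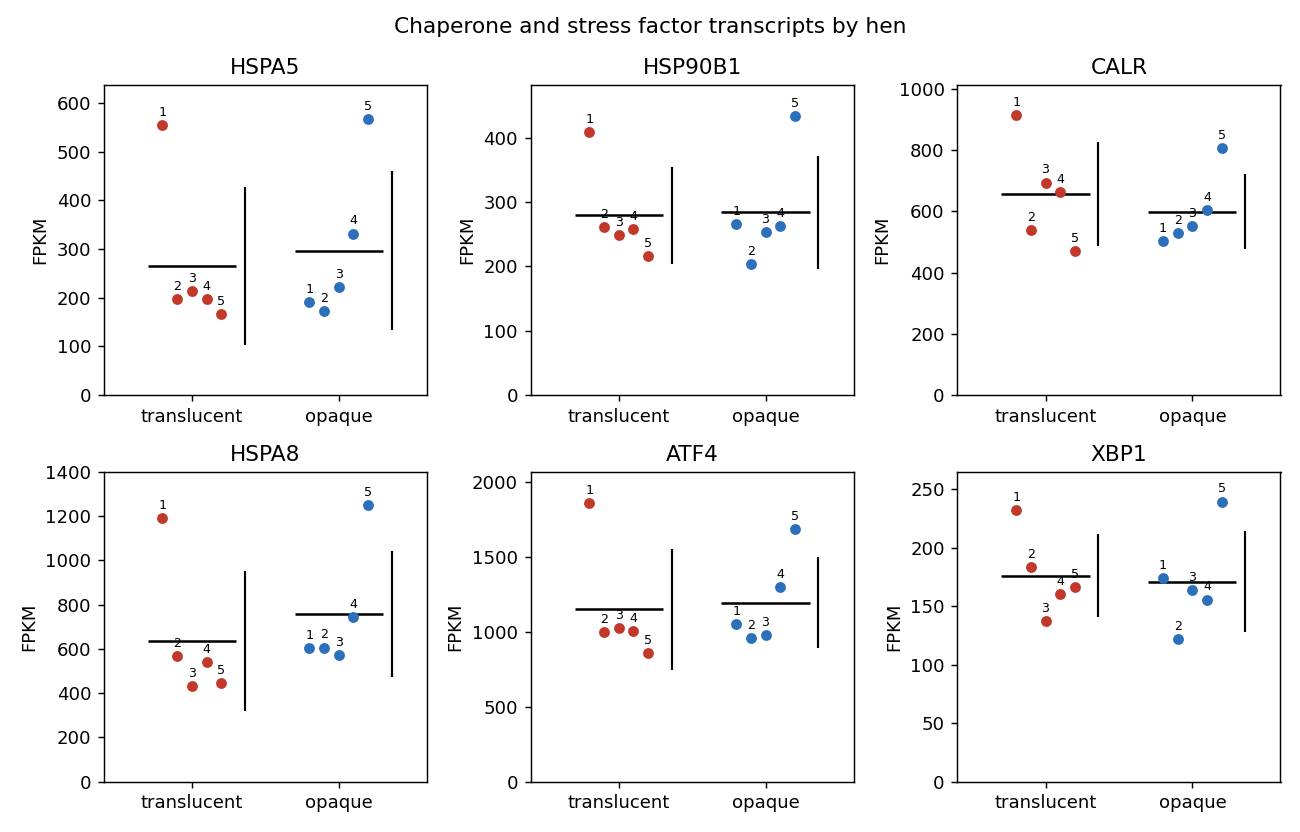
FPKM of the luminal chaperones HSPA5 and HSP90B1, the lectin chaperone CALR, the cytosolic chaperone HSPA8 and the transcription factors ATF4 and XBP1 in each hen, translucent in red on the left and opaque in blue on the right; numbers are hens, horizontal bars are means and vertical bars are ± 1 SD (n = 5). In all 6 panels the highest values belong to Translucent-1 and Opaque-5, for HSPA5 at 554 and 567 FPKM, and the group means lie close to each other.

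Among the lectin chaperones, CALR (calreticulin), which is soluble in the lumen, had 916, 537, 694, 664 and 470.4 FPKM in translucent hens, against 503, 528, 552, 604 and 808 FPKM in opaque hens. Its membrane-bound relative CANX (calnexin) had 90.4, 115, 116, 109 and 118 FPKM in translucent hens, against 119, 139, 121, 102 and 97.5 FPKM in opaque hens. Translucent-1 and Opaque-5 were highest for calreticulin. For calnexin they were lowest in FPKM but not after TMM scaling, where Translucent-1 had 333 CPM and Translucent-4 had 328 CPM, and Opaque-5 had 354 CPM and Opaque-4 had 328 CPM. The groups overlapped for both genes. UGGT2, related to the glucosyltransferase that marks misfolded glycoproteins, averaged 48.8 ± 11.5 FPKM in translucent and 42.7 ± 7.51 FPKM in opaque hens. The 5 members tested in this group, which also holds genes of glycoprotein quality control, had log2 fold changes from −0.07 to 0.19.

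Of the 3 genes of thiol oxidation, ERO1B, an oxidase that hands disulfide bonds to the isomerases, had the third smallest p-value on the higher side. It stood at 19.8, 39.1, 42.9, 30.0 and 58.9 FPKM in translucent hens, against 29.9, 35.7, 28.3, 23.4 and 14.0 FPKM in opaque hens. The lowest hen of each group was again Translucent-1 or Opaque-5, and the groups overlapped. The log2 fold change was 0.54 ± 0.25 (SE, unadjusted p-value 0.0515 in edgeR). Its paralog ERO1A averaged 34.6 ± 2.66 FPKM in translucent and 31.1 ± 4.08 FPKM in opaque hens, and the thioredoxin-domain protein TXNDC5 averaged 59.4 ± 5.71 FPKM in translucent and 58.2 ± 4.45 FPKM in opaque hens.

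Genes of vesicle export were level between the groups. Over 15 cargo receptor and COPII genes the log2 fold changes ran from −0.18 to 0.20, with 9 positive and 6 negative, and the summed level was 1148 ± 48.6 FPKM in translucent and 1127 ± 71.2 FPKM in opaque hens. LMAN1L, a relative of the mannose-binding cargo receptor LMAN1, was the most abundant, at 258 ± 29.5 FPKM in translucent and 262 ± 25.7 FPKM in opaque hens. SAR1A, the GTPase that starts coat assembly, had 188, 124, 145, 122 and 116 FPKM in translucent hens, against 107, 108, 120.4, 129 and 183 FPKM in opaque hens. Its 2 high hens were those that were high for HSPA5. SEC13, a cage subunit of the coat, averaged 139 ± 13.5 FPKM in translucent and 128 ± 13.4 FPKM in opaque hens. SEC24A, a cargo-binding subunit, lay at 29.44 to 33.28 FPKM in translucent hens and at 33.92 to 38.15 FPKM in opaque hens. Its groups thus did not meet in FPKM, with translucent hens lower, but they met after TMM scaling. As for SEC61G, the share of all genes without overlap in FPKM was not computed. The log2 fold change of SEC24A was −0.18 ± 0.10 (SE).

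ERAD genes at the membrane had the same lack of group difference. Their median SD within groups was 0.24 in log2 CPM, against 0.28 over all members and 0.35 over all genes. Single genes spread more widely, such as HERPUD1 with an SD of 0.76 and SEL1L with 0.57. EDEM1, which trims mannose on misfolded glycoproteins, was the most abundant of the 20, with 86.3, 158, 164, 149.8 and 184 FPKM in translucent hens, against 165, 182, 151, 111 and 77.3 FPKM in opaque hens. Translucent-1 and Opaque-5 were lowest here. ERLEC1, a lectin of the same step, had 142, 107, 112, 108 and 96.0 FPKM in translucent hens, against 99.3, 81.7, 88.8, 97.6 and 117 FPKM in opaque hens. These 2 hens were highest for it. DERL1, part of the exit channel, averaged 87.2 ± 11.1 FPKM in translucent and 86.1 ± 9.57 FPKM in opaque hens.

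SEL1L, which joins substrates to the ubiquitin ligase HRD1, was chosen for description after its values were seen. It had 25.7, 72.3, 78.7, 53.2 and 104 FPKM in translucent hens, against 55.7, 75.4, 64.0, 44.0 and 26.7 FPKM in opaque hens. The ligase itself is listed as syvn1, a locus that the authors assembled from the reads, and lay between 2.1 and 4.1 FPKM in all hens. Whether this locus covers the whole gene is not known, and it is not among the 20 genes of this group. Over the 20 genes the log2 fold change had a median of 0.06 and ran from −0.17 to 0.33, and SEL1L was at the upper end.

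The 23 genes of extraction, ubiquitin transfer and delivery to the proteasome were the tightest group, with a median SD within groups of 0.19 in log2 CPM. Their summed level was 1185 ± 17.2 FPKM in translucent and 1188 ± 91.7 FPKM in opaque hens, 12 log2 fold changes were positive and 11 negative, and the median was 0.00. SKP1, a core subunit of cullin ligases, averaged 183 ± 7.86 FPKM in translucent and 174 ± 15.7 FPKM in opaque hens. RAD23B, a shuttle to the proteasome, had 102, 195, 165, 190.5 and 179.9 FPKM in translucent hens, against 232, 171, 132, 158 and 94.2 FPKM in opaque hens, lowest in Translucent-1 and Opaque-5. UBE2D3, a ubiquitin-conjugating enzyme, ranged from 91.6 to 109 FPKM in translucent and from 80.0 to 118 FPKM in opaque hens.

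Cytosolic chaperones leaned the other way, with 1 positive and 8 negative log2 fold changes among the 9 tested, a median of −0.10 and a lowest value of −0.23, and 0 were called. The split was the same with library size alone, median-of-ratios factors, DESeq2 and log2 FPKM, and without Translucent-1 and Opaque-5. These settings reuse the same hens. Of the 9 genes, 5 had r over 0.8 with HSPA5 across hens, so their signs are not independent. Over all genes, 6250 log2 fold changes were positive and 6608 negative. HSPA8, the constitutive cytosolic Hsp70, had 1194, 567, 431, 542 and 447 FPKM in translucent hens, against 602, 606, 573, 746 and 1251 FPKM in opaque hens. HSP90AA1, an Hsp90 of the cytosol, had 852, 649, 394, 593 and 495 FPKM in translucent hens, against 679.8, 629, 616, 601 and 813 FPKM in opaque hens. Both overlapped between the groups and were highest in the same 2 hens. The log2 fold change was −0.23 ± 0.38 (SE) for HSPA8 and −0.14 ± 0.25 (SE) for HSP90AA1. DNAJA2, a J-domain partner, averaged 89.3 ± 6.72 FPKM in translucent and 94.1 ± 12.3 FPKM in opaque hens.

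Sensors and transcription factors of the stress response held the only tested member whose groups did not meet in CPM. EIF2AK1, the heme-regulated kinase of the translation factor eIF2, had 12.9, 15.5, 16.5, 16.2 and 15.4 FPKM in translucent hens, against 18.8, 16.9, 19.8, 19.2 and 16.9 FPKM in opaque hens. All 5 translucent hens were below all 5 opaque hens, as was so for 1 of 133 members (0.752%) and for 0.233% of all genes, while 0 members and 0.21% of all genes lay wholly above. The log2 fold change was −0.26 ± 0.10 (SE, unadjusted p-value 0.0259 in edgeR), and EIF2AK1 was one of the least variable members, with an SD of 0.09 in log2 CPM within groups.

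The other eIF2 kinases lay closer to 0 or on the other side of it. EIF2AK2 had a log2 fold change of −0.07 ± 0.16, EIF2AK3 of 0.20 ± 0.18 and EIF2AK4 of 0.01 ± 0.17 (SE). ATF4, the transcription factor whose translation rises when eIF2 is phosphorylated, had 1858, 998, 1026, 1005 and 855 FPKM in translucent hens, against 1049, 959, 979, 1300.5 and 1683 FPKM in opaque hens. XBP1, the target of IRE1 splicing, had 233, 183, 138, 161 and 167 FPKM in translucent hens, against 174, 122, 164, 156 and 239 FPKM in opaque hens. These are total transcript levels, and spliced XBP1 was not measured. The log2 fold change was −0.04 ± 0.30 for ATF4 and 0.05 ± 0.24 for XBP1 (SE).

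DDIT3 (CHOP), the factor tied to cell death under lasting stress, had 16.7, 22.7, 17.5, 13.8 and 20.7 FPKM in translucent hens, against 14.4, 13.6, 12.1, 22.6 and 17.6 FPKM in opaque hens. Its highest hen was in each group a different one from that of HSPA5. NFE2L2, a regulator of antioxidant genes, was the least variable tested member, with an SD of 0.08 in log2 CPM within groups, and averaged 58.8 ± 7.34 FPKM in translucent and 63.3 ± 6.11 FPKM in opaque hens. WFS1, an ER membrane protein whose loss causes ER stress in mammals, had 10.1, 16.7, 17.1, 20.1 and 19.6 FPKM in translucent hens, against 22.0, 23.0, 18.9, 24.2 and 14.5 FPKM in opaque hens. Its log2 fold change was −0.30 ± 0.16 (SE) and that of ATF6 was −0.20 ± 0.13 (SE), and the groups overlapped for both.

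The 10 genes of stress signaling and cell death were the most variable group, with a median SD of 0.54 in log2 CPM, and were lowly expressed, summing to 155 ± 33.2 FPKM in translucent and 157 ± 35.1 FPKM in opaque hens. CAPN2, a calcium-dependent protease, averaged 61.3 ± 15.0 FPKM in translucent and 63.8 ± 22.9 FPKM in opaque hens. The stress kinase MAPK8 (JNK1) averaged 20.9 ± 4.84 FPKM in translucent and 21.2 ± 4.97 FPKM in opaque hens. MAPK9 (JNK2) had 7.35, 20.6, 25.4, 13.0 and 35.6 FPKM in translucent hens, against 15.7, 26.0, 15.0, 17.0 and 4.07 FPKM in opaque hens. MAP2K7, a kinase upstream of both, had 0.830, 2.29, 3.65, 2.55 and 5.87 FPKM in translucent hens, against 2.93, 4.15, 3.47, 1.47 and 0.400 FPKM in opaque hens. Translucent-1 and Opaque-5 were lowest for MAPK9 and MAP2K7.

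Of the 14 members outside these role groups, 0 were called. LOC430766, which has no assigned name here, was the most abundant, at 107, 129, 136, 132 and 104 FPKM in translucent hens, against 128, 116, 143, 117 and 101 FPKM in opaque hens. MSTRG.8559, a locus that the authors assembled from the reads, had 6.36, 11.9, 29.7, 11.4 and 1.86 FPKM in translucent hens, against 13.5, 7.58, 16.4, 11.1 and 12.1 FPKM in opaque hens. The translucent values spanned the opaque ones. ENSGALG00000034137 had a log2 fold change of 0.56 ± 0.29 (SE), and CAPN11, a calpain, averaged 49.7 ± 4.08 FPKM in translucent and 54.8 ± 9.71 FPKM in opaque hens.

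**Figure D3:**
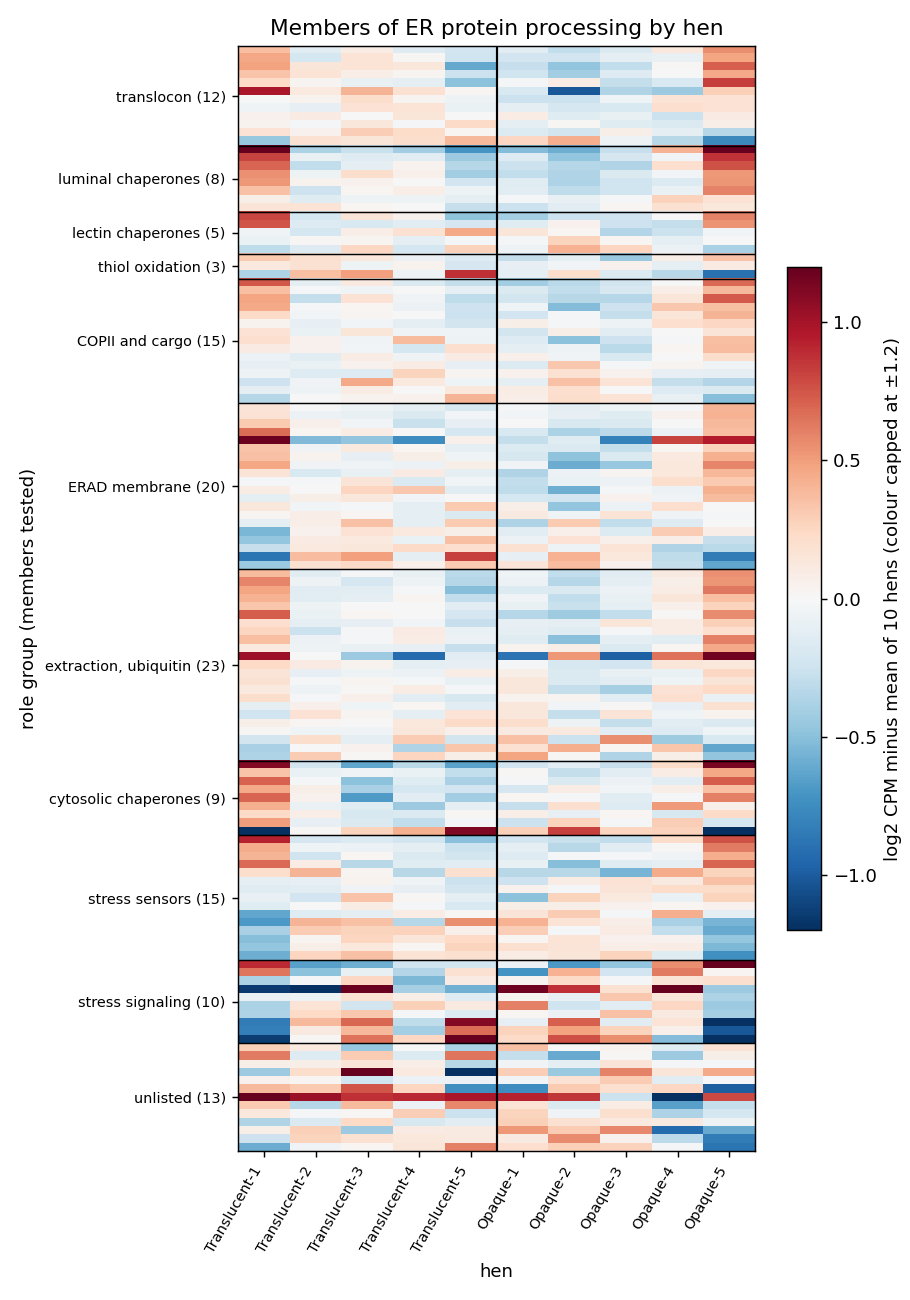
Log2 CPM of each of the 133 tested members in each hen, minus the member's mean over 10 hens, with 1 line per member, grouped by role and sorted by likeness to HSPA5; red is above and blue below the mean, the colour is capped at ±1.2, and translucent hens are left of opaque hens. The columns of Translucent-1 and Opaque-5 are the most strongly coloured. They are red for most luminal chaperones at the top of their block and blue for the 5 members at the foot of the block of stress sensors and their transcription factors. No role block is of one colour in all 5 hens of a group.

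The pattern that the members did share ran across hens. Opaque-5 was the highest hen for 43 members (32.3%, against 22.5% of all genes) and Translucent-1 for 25 (18.8%, against 13.8% of all genes). These 2 hens were also often lowest, Opaque-5 for 23 members (17.3%, against 24.1% of all genes) and Translucent-1 for 7 (5.26%, against 12.9% of all genes). The median deviation of the members in log2 CPM was 0.20 in Opaque-5 and 0.15 in Translucent-1, while over all genes it was 0.00 in Opaque-5 and 0.01 in Translucent-1. Of the role groups, luminal chaperones deviated most in the upward direction, with medians of 0.53 in Translucent-1 and 0.56 in Opaque-5, followed upward by cytosolic chaperones at 0.45 in Translucent-1 and 0.36 in Opaque-5. Stress signaling genes deviated downward, at −0.38 in Translucent-1 and −0.42 in Opaque-5.

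Likeness to HSPA5 was described by Pearson's r of log2 CPM over the 10 hens, which share library depth and scaling. Of the 132 other members tested, 42 (31.8%) had r over 0.8, against 13.1% of all genes, and 18 (13.6%) had r under −0.8, against 14.5% of all genes. The larger share with r over 0.8 rests on Translucent-1 and Opaque-5. Over the other 8 hens, 4 members (3.03%) had r over 0.8, against 3.08% of all genes. On the lower side, 4 (3.03%) had r under −0.8, against 5.02% of all genes. The median r of the members was 0.47 over 10 hens and 0.25 over these 8. Over all genes it was −0.004 over 10 hens and 0.007 over these 8. With scaling by library size alone, 14 members (10.6%) had r over 0.8, against 3.83% of all genes, and 25 (18.9%) had r under −0.8, against 23.3% of all genes, so the split between the 2 directions depends on the scaling.

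By role, r over 0.8 was reached by 5 of 7 other luminal chaperones, 5 of 9 cytosolic chaperones, 9 of 23 extraction and ubiquitin genes, 7 of 20 ERAD genes, 5 of 15 export genes and 4 of 12 entry genes. It was also reached by 4 of 15 sensors and factors, 2 of 5 genes of lectin chaperones and glycoprotein quality control, and 1 of 10 stress signaling genes. The most alike was ATF4, with r of 0.99 over 10 hens and 0.93 over 8. Among those 8 hens Opaque-4 was the highest for both ATF4 and HSPA5, and r without it was not computed. HSP90B1, the J-domain protein DNAJC1, the ubiquitin-conjugating enzyme UBE2D2 and UFD1L, a cofactor of the segregase VCP, followed at 0.96 each over 10 hens. Over the other 8 hens r with HSPA5 was 0.69 for HSP90B1, 0.77 for DNAJC1, 0.84 for UBE2D2 and 0.74 for UFD1L.

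**Figure D4:**
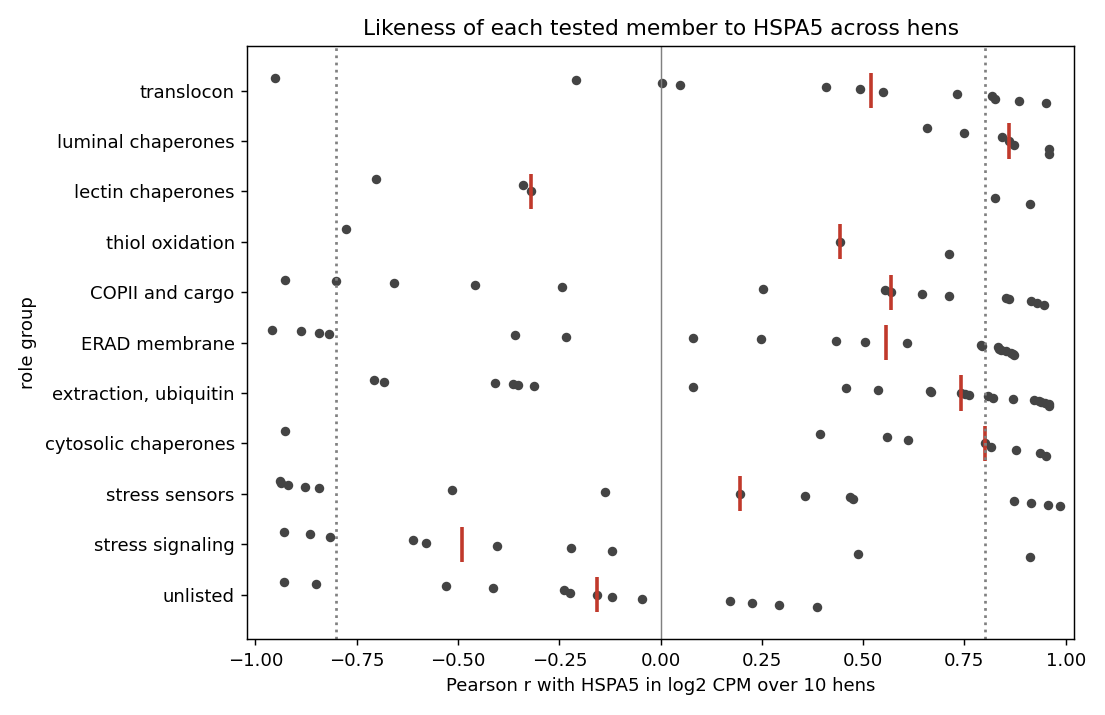
Pearson's r with HSPA5 in log2 CPM over 10 hens for each of the 132 other tested members, by role group; red ticks are group medians and dotted lines mark r of −0.8 and 0.8. Luminal and cytosolic chaperones lie to the right, with 5 of 7 and 5 of 9 members over 0.8. The group of stress sensors and their transcription factors falls at both ends, with 4 members over 0.8 and 5 under −0.8. In it the factor ATF4 lies at the upper end and the sensors ERN1 and EIF2AK3 at the lower end.

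The 18 members with r under −0.8 were 5 of the sensors and factors group, 4 ERAD genes, 3 stress signaling genes, 2 export genes, 2 members outside the role groups, 1 cytosolic chaperone and 1 entry gene. Their share was near that of all genes, as given above. Those described next were chosen after their values were seen. ERN1 (IRE1), the sensor kinase and nuclease, had 17.4, 37.3, 39.7, 35.8 and 37.6 FPKM in translucent hens, against 35.4, 34.7, 39.1, 27.4 and 15.9 FPKM in opaque hens. EIF2AK3 (PERK) had 35.3, 67.6, 66.1, 68.1 and 60.2 FPKM in translucent hens, against 71.7, 54.8, 61.4, 43.2 and 30.9 FPKM in opaque hens. In both sensors Translucent-1 and Opaque-5 were lowest. MBTPS1, the protease that makes the first cut in ATF6, had 25.4, 44.3, 51.7, 49.1 and 53.8 FPKM in translucent hens, against 46.9, 48.8, 46.8, 43.5 and 26.8 FPKM in opaque hens. CKAP4, a membrane protein that spaces ER sheets, had 35.3, 65.1, 63.7, 67.8 and 79.2 FPKM in translucent hens, against 72.6, 78.3, 57.4, 44.2 and 28.7 FPKM in opaque hens.

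Over 10 hens r with HSPA5 was −0.96 for EDEM1, −0.95 for CKAP4, −0.94 for ERN1, −0.92 for MBTPS1, −0.89 for SEL1L and −0.88 for EIF2AK3. Over the other 8 hens it was −0.91 for EDEM1 and −0.94 for CKAP4, but −0.59 for ERN1, −0.35 for MBTPS1, −0.64 for SEL1L and −0.61 for EIF2AK3. Opaque-4, the highest of these 8 hens for HSPA5, was the lowest of them for EDEM1 and CKAP4, and r without it was not computed. A second locus carrying the symbol ERN1 but described as the IRE2 enzyme, MSTRG.3867, stood at 23.1, 24.9, 37.2, 30.2 and 28.4 FPKM in translucent hens, against 22.2, 35.4, 33.2, 26.9 and 30.1 FPKM in opaque hens. It had r of 0.20, unlike ERN1. The gene length implied by counts and FPKM had a median of 2044 bases in members with r over 0.8 and 2733 bases in members with r under −0.8, and over all genes 1788 bases in those over 0.8 and 2898 bases in those under −0.8. The part of length, or of RNA quality, in this pattern was not tested.

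**Figure D5:**
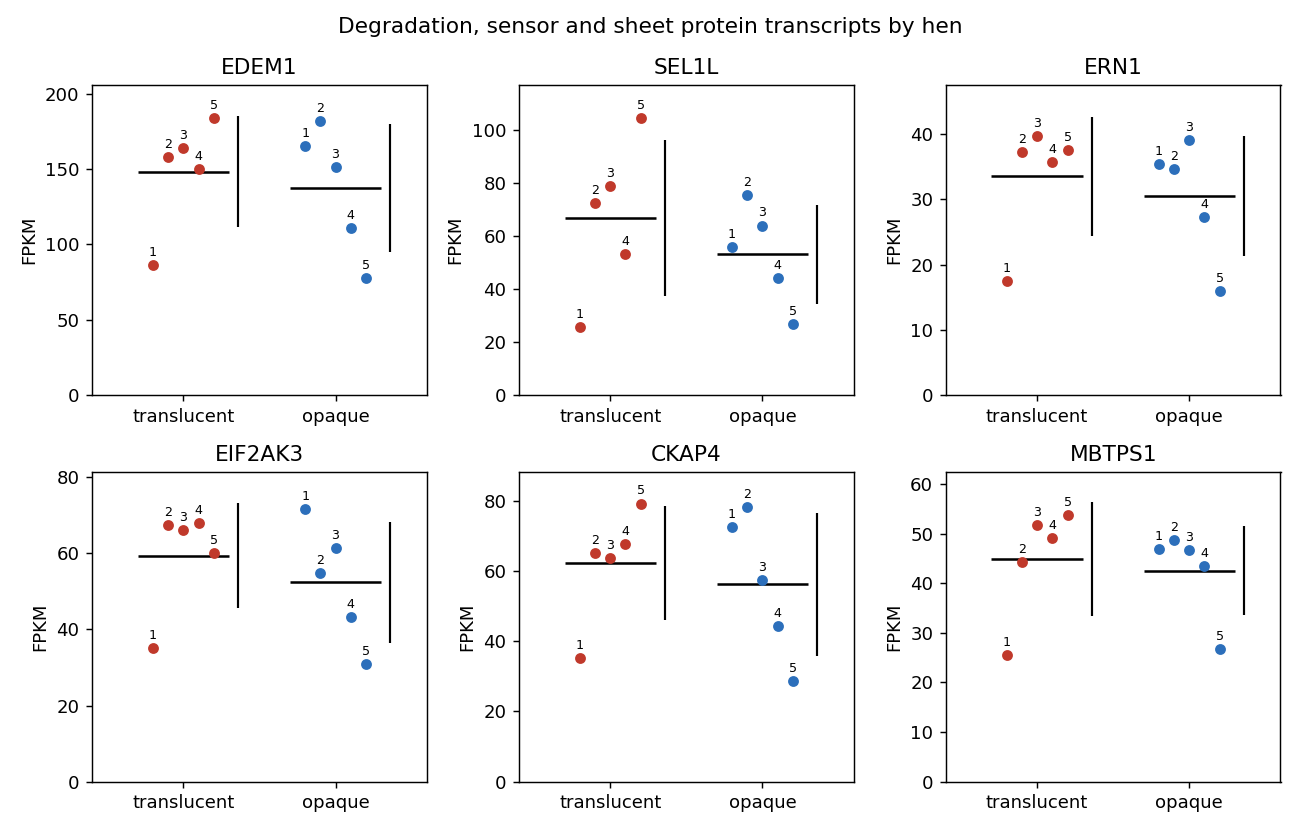
FPKM of the ERAD genes EDEM1 and SEL1L, the sensors ERN1 and EIF2AK3, the sheet protein CKAP4 and the protease MBTPS1 in each hen, translucent in red on the left and opaque in blue on the right; numbers are hens, horizontal bars are means and vertical bars are ± 1 SD (n = 5). Translucent-1 and Opaque-5 are the lowest hen of their group in all 6 panels, for EDEM1 at 86.3 and 77.3 FPKM, against 111 to 184 FPKM in the other hens.

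A family of 6 relations of HSPA5 was tested over hens in log2 CPM. For HSP90B1, Pearson's r was 0.96 (permutation p-value 0.00011, adjusted 0.00066) and Spearman's rho was 0.81 (permutation p-value 0.0069, adjusted 0.0207). For HSPA8, r was 0.95 (permutation p-value 0.00146, adjusted 0.00438) and rho was 0.64 (permutation p-value 0.0539, adjusted 0.108). Without Translucent-1 and Opaque-5, the 2 hens farthest from the median of HSPA5, r was 0.69 for HSP90B1 (exact permutation p-value 0.0547, adjusted 0.164) and 0.67 for HSPA8 (exact permutation p-value 0.0844, adjusted 0.169), so both relations rest on those hens. Within groups, as deviations from the group means, r was 0.97 for HSP90B1 and 0.96 for HSPA8.

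DDIT3 did not pass, with r of 0.47 (permutation p-value 0.178, adjusted 0.178) and rho of 0.47 (permutation p-value 0.178, adjusted 0.247), and r of 0.42 over 8 hens. COL10A1, the membrane collagen, had r of 0.59 (permutation p-value 0.0816, adjusted 0.0979) and rho of 0.44 (permutation p-value 0.206, adjusted 0.247), which became r of 0.23 over 8 hens and −0.42 with library size alone. The mean of 8 smooth muscle markers had r of 0.59 (permutation p-value 0.0776, adjusted 0.0979) and rho of 0.37 (permutation p-value 0.297, adjusted 0.297), with r of 0.23 over 8 hens. These markers summed to 327 to 1023 CPM in translucent and 468 to 643 CPM in opaque hens. The sum was highest in Translucent-1, while Opaque-5 was the lowest of the opaque hens. Single markers had r from −0.50 for SYNM to 0.84 for CNN1 over 10 hens.

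The mean of 4 plasma cell markers (MZB1 and TNFRSF17 were not found by symbol) ran against HSPA5, with r of −0.66 (permutation p-value 0.0357, adjusted 0.0715) and rho of −0.83 (permutation p-value 0.00464, adjusted 0.0207). Over the other 8 hens Pearson's r was farther from 0, at −0.90 (exact permutation p-value 0.00744, adjusted 0.0446), while rho was closer to 0 and no longer passed, at −0.74 (exact permutation p-value 0.0458, adjusted 0.275). Single markers had r from −0.83 for PRDM1 to −0.36 for IRF4 over 10 hens. Over 8 hens they had r from −0.96 for JCHAIN to −0.20 for POU2AF1. JCHAIN, the joining chain of secreted antibodies, carried most of the summed level, with a mean of 592 FPKM. In the tested mean of log2 CPM each marker weighed the same. Opaque-4 was the lowest hen for JCHAIN, at 157 CPM. Among the 8 hens it was also the highest for HSPA5. It stood 0.42 above the mean of all hens in log2 CPM, against −0.70 to −0.26 in the others. The r without Opaque-4 was not computed. The summed markers ranged from 719 to 3000 CPM in translucent hens and from 177 to 1212 CPM in opaque hens. The part of plasma cells in the HSPA5 level was not tested.

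Markers of other cells also moved with these hens. The 6 epithelial markers found summed to 4317, 2562, 3202, 2695 and 2285 CPM in translucent hens, against 2337, 2999, 2859, 4169 and 4793 CPM in opaque hens, and 4 of the 6, EPCAM among them, had r over 0.8 with HSPA5. The 7 fibroblast markers summed to 381, 551, 395, 704 and 549 CPM in translucent hens, against 670, 680, 540, 377 and 299 CPM in opaque hens, and 4 of the 7 had r under −0.8. Of all genes, 13.1% had r over 0.8 and 14.5% had r under −0.8. Over the 8 hens without Translucent-1 and Opaque-5, r ran from 0.65 to 0.88 for the epithelial markers. For the fibroblast markers it ran from −0.94 to −0.10. Translucent-1, Opaque-5 and Opaque-4, the hens highest for HSPA5, were the highest for the epithelial sum and the lowest for the fibroblast sum. Leukocyte markers summed to 340 to 785 CPM in translucent and 211 to 540 CPM in opaque hens. Red blood cell markers summed to 75.1 to 204 CPM in translucent and 93.5 to 188 CPM in opaque hens, and ciliated cell markers to 497 to 657 CPM in translucent and 564 to 696 CPM in opaque hens. Magnum markers summed to 68219 to 161173 CPM in translucent and 61323 to 121574 CPM in opaque hens, and shell gland markers to 3.02 to 7.42 CPM in translucent and 6.61 to 44.3 CPM in opaque hens. The part of cell makeup in the chaperone levels was not tested.

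Outside the pathway list, 20 of 21 genes known from ER stress and signal peptide cleavage were found and tested. None was called, 1 was higher and 0 were lower at an unadjusted p-value of 0.05 in edgeR, and the median log2 fold change was 0.09. The 1 gene was SPCS2, a subunit of the signal peptidase, at 0.63 ± 0.26 (SE). MANF, a factor secreted on ER stress, had 263, 139, 171, 161 and 117 FPKM in translucent hens, against 112, 103, 119.7, 122 and 215 FPKM in opaque hens, highest in the same hens as HSPA5. It was 1 of 7 genes of this list with r over 0.8 over 10 hens, where 13.1% of all genes were, and 0 had r under −0.8. Over the other 8 hens r was 0.28 for MANF, and 1 of the 7, the signal peptide peptidase HM13, was still over 0.8, at 0.805. DNAJB9, a J-domain partner of HSPA5, had r of 0.74 over 10 hens and 0.42 over 8, and CHAC1, a target of the ATF4 arm, had r of −0.60 over 10 hens and 0.19 over 8.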

How the data were processed

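Total RNA of the isthmus was enriched for mRNA and sequenced in 10 hens. Per the labels and methods, the authors used fastp, Bowtie2, HISAT2, StringTie and RSEM, and the genome build is not given in the sources used here. The authors deposited estimated (expected) counts per gene and hen, not normalized, and FPKM values corrected for gene length and mapped fragments. Of the expected counts deposited, 6.73% were fractional because RSEM shares reads between genes, and they were rounded. TMM scaling, filterByExpr and the quasi-likelihood test of edgeR 4.0.16 were applied to the whole table, with Benjamini-Hochberg adjustment, in R 4.3.3. Alternatives used DESeq2 1.42.0, limma 3.58.1 on log2(FPKM + 1) and log2(FPKM + 0.1), other scalings and filters, and hens left out. Log2 CPM used a prior count of 2. HSPA5 was tested by exact permutation and relations by 100000 resamples (all orders over 8 hens), with ranks from SciPy 1.17.1. Figures were drawn with matplotlib 3.10.9. The group tests of edgeR, DESeq2 and limma were tried on simulated counts with known changes, which were larger than any seen in the members.

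The members, lists and tests were chosen with earlier results of these data known. Named genes were HSPA5, the 3 most abundant members per role group, the 5 with the smallest p-values in each direction, those without overlap, the 3 most variable and the 5 most like HSPA5. Others were chosen after their values were seen. The 2 groups share replicate numbers, but these belong to different hens. Nothing beyond the hen is said of batches, so p-values measure the spread between these hens.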

Additional observations from a re-analysis of the deposited data

Results flagged for a closer look

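In 9 of the 92 groups of 5 hens examined for the named members (9.78%), 1 hen lay far from the others in log2 CPM. For a single group chance gives about 1 in 20. The 92 groups share the same 10 hens, and some members were named for their spread or likeness to HSPA5. The 9.78% therefore cannot be set against that rate. Values below are the hen's gap to its nearest neighbor as a share of the group's range, against a critical value of 0.71. Translucent-1 was highest among translucent hens for HSPA5 (0.786), HSPA8 (0.760), HSP90B1 (0.717) and ATF4 (0.766). Opaque-5 was highest among opaque hens for HSP90AA1 (0.790), DNAJC3 (0.748) and SSR1 (0.794). Translucent-5 was lowest among translucent hens for LOC430766 (0.832), and Opaque-4 was lowest among opaque hens for ENSGALG00000033498 (0.858), where it held 1 read. In 7 of the 9 cases the hen is one of the 2 libraries that stood apart over all genes.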

How the results depend on the processing

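The count of 0 members called held under all 20 alternatives run. Counts at an unadjusted p-value of 0.05 moved. The 2 members higher in translucent hens became 13 in the 6 hens with listed sequencing statistics (9.77%, against 4.04% of all genes). They became 5 with DESeq2 (3.68%, against 1.39% of all genes) and 5 with no low-count filter (3.68%, against 1.46% of all genes). The count was 1 with library size alone (0.752%, against 1% of all genes) and 5 without Translucent-1 and Opaque-5 (3.76%, against 2.25% of all genes). With 1 hen left out it was 2 to 4 (1.5% to 3.01%, against 0.87% to 2.24% of all genes). It was 4 without Opaque-2 (3.01%, against 0.956% of all genes) and 4 without Opaque-5 (3.01%, against 2.24% of all genes). The 1 member lower became 0 in the 6 hens (against 3.63% of all genes) and 2 with library size alone (1.5%, against 1.24% of all genes). With the replicate block it became 0 (against 0.638% of all genes). When 1 hen was left out it became 0 to 2 (0% to 1.5%, against 0.849% to 1.7% of all genes), and 0 without Translucent-5, Opaque-3 or Opaque-4. The replicate block left 2 members higher (1.5%, against 0.622% of all genes), and 162 genes passed in either direction (1.26%). Between hens of the same number, deviations correlated at −0.13 on average (5 pairs, r from −0.42 to 0.10). Across the 20 pairings of unlike number, the average was 0.04, with r from −0.40 to 0.62. These ranges overlapped, and whether same-numbered hens shared a batch was not tested. HSPA5 was −0.52 to 0.16 in log2 CPM difference with 1 hen left out, −0.52 without Translucent-1 and 0.16 without Opaque-5. Its log2 fold change ran from −0.73 to 0.33, being 0.33 without Opaque-5, 0.01 without Translucent-5 and 0.93 in the 6 hens. The relation of HSPA5 with COL10A1 was −0.42 with library size alone, with HSP90B1 0.69 and HSPA8 0.67 without the 2 hens farthest from its median, and with plasma cell markers −0.90 without those hens and −0.75 with library size alone. The causes were not tested. MAPK10 gave no value with at least 10 reads in every hen. Apart from HSPA5, the 10 other named members whose fold changes were recomputed kept their sign wherever a value was given. These 10 were the members with the 5 smallest p-values in each direction, a choice that itself favors a kept sign. Other named members were not followed in this way. With 5 hens per group, SEs near 0.17 limit what small differences can be seen.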
